A study of Mus musculus with 10 samples.

Results

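The livers described here came from the 5 control mice of a series of 10, chosen as every sample labelled as a control. All 5 were male C57BL/6NCrSlc mice, an inbred strain, that ate a diet high in cholesterol for 4 weeks and were given no extract of mulberry leaf. The other 5 mice of the series received the extract and are not compared here. Liver was kept in RNAlater, 500 ng of total RNA was labelled with the dye Cy3, and each mouse was hybridised to 1 Agilent array. The question addressed was how far genetically alike mice on the same diet differed, and which genes differed together.

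The mouse numbers need a reservation before any result. The series also holds a table of processed values, and its columns and the scanner files did not carry the same numbers. Over 10725 genes, each centred on the 5 controls, the table's column for control 1 correlated with the scanner array of control 5 at r = 0.957 and with that of control 1 at r = -0.385. The columns for controls 2, 3, 4 and 5 correlated best with the scanner arrays of controls 1, 2, 3 and 4, at 0.968, 0.959, 0.952 and 0.916. Every column therefore matched another control, and which numbering is right is not known from these files. Mouse numbers below are those of the scanner files, so that they name arrays, and counts and spreads do not depend on them.

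The liver is made mostly of hepatocytes, which secrete plasma proteins, burn and store fat and clear foreign compounds. Several of these programs change within hours with feeding, hormones or the time of day. Interferon-gamma, released by activated lymphocytes, switches on antigen presentation and a set of defence GTPases in macrophages and hepatocytes.

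Across the 5 arrays, 55.7% to 60.9% of probes were well above background, and no spot was saturated. The level of a gene is given as log2 of the processed signal minus the array's 75th percentile, so that 1 unit is a 2-fold difference. Of 41142 probes, 21795 were well above background on all 5 arrays, and they stood for 16768 genes or transcripts, of which 11777 had a RefSeq symbol. Depth has no meaning for arrays, and precision is limited by their number. The labels describe 1 mouse per array, so the spread holds differences between mice together with those of extraction, labelling and hybridisation. The median SD of replicate spots within an array was 0.066 to 0.071. Arrays of 2 livers correlated across genes at 0.979 for controls 1 and 2, the least alike, and 0.993 for controls 3 and 5, the most alike.

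The brightest probes belonged to secreted hepatocyte products, with the limit that probes differ in brightness for a given amount of RNA. Among the 25 brightest were Alb (albumin), Apoc1 and Apoe (lipoprotein components), Hp and Hpx (binders of haemoglobin and haem), Fgb (fibrinogen), C3 (complement), Ambp, Serpina3k and Trf (transferrin). Gstm1, a detoxifying enzyme, Fth1, the ferritin heavy chain, and Mup1 and Mup3, the major urinary proteins of male mice, were also among them. Of 18 measured hepatocyte markers, 16 were in the brightest 10% of genes and 10 in the brightest 1%. Several of these bright genes spanned less than the median gene, which had a 1.54-fold range, but not all. Alb had 9.96, 10.10, 10.45, 10.02 and 10.38 in controls 1 to 5, a 1.41-fold range. Apoe had a 1.27-fold range and Fgb a 1.15-fold range. Hpx had 9.71, 9.61, 8.83, 10.11 and 9.17, a 2.43-fold range with control 3 lowest, and Trf and Gstm1 spanned 1.54-fold and 1.49-fold. The other probe of Gstm1 spanned 2.74-fold, with control 5 highest.

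Most genes varied little. The median SD between the 5 livers was 0.25, with 0.17 at the 25th percentile and 0.68 at the 95th. The median gene spanned a 1.54-fold range. The range was over 2-fold in 3602 genes, 21.5% of those measured, over 4-fold in 448 genes, 2.67%, and over 8-fold in 78 genes, 0.465%. Brighter genes had a smaller spread, with a median SD of 0.30 in the dimmest of 20 level bins and 0.20 in the brightest. For 154 probes printed at 5 or more spots, the median SD between livers was 0.27 and the median SD between spots within an array was 0.066. The difference between livers exceeded that between spots in 148 of these probes.

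**Figure D1:**
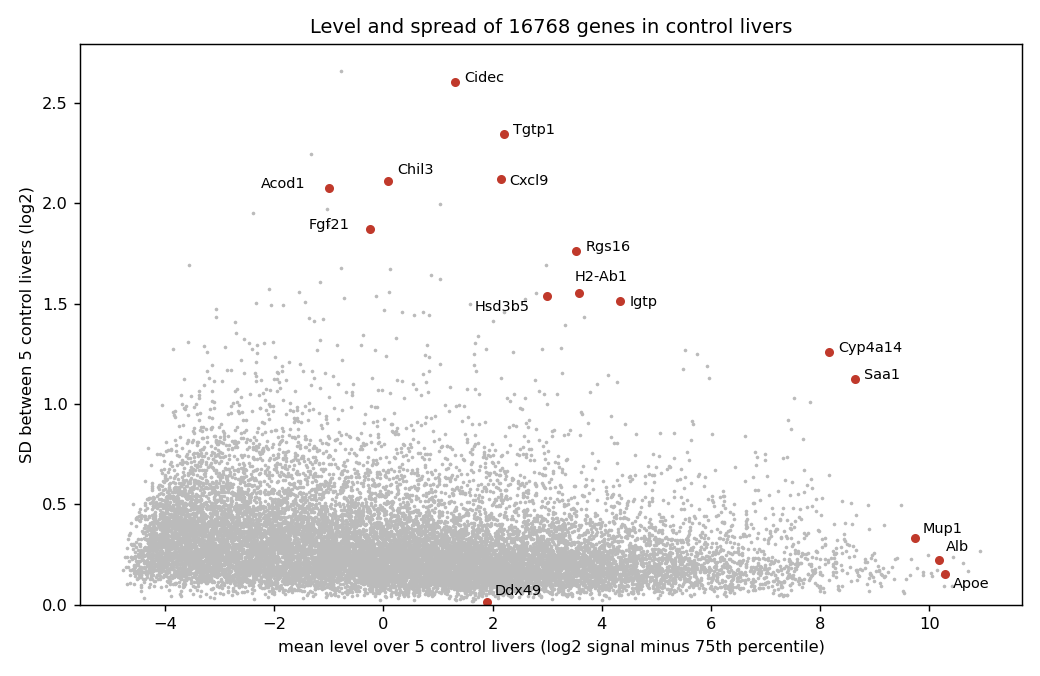
Each grey point is 1 of 16768 genes, with the mean level over 5 control livers on the x axis (log2 signal minus the array's 75th percentile) and the SD between the livers on the y axis (log2). Red points are named genes: Cidec, Tgtp1, Cxcl9, Chil3 and Acod1 lie far above the cloud, and the bright Alb and Apoe lie within it near the bottom.

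Genes with the smallest spread included Ddx49, an RNA helicase, with 1.88 to 1.92 in the 5 livers, and Katna1, a microtubule-severing protein, with 1.61 to 1.65. Of 16 measured reference genes used to normalise expression, 1 spanned over 2-fold, against 21.5% of all genes, and their median SD was 0.15. The exception was Tfrc, the transferrin receptor, at -0.52, -0.04, -0.04, -0.58 and 0.83. Control 5 was highest for Tfrc. B2m, the light chain of MHC class I, spanned 1.73-fold, with its highest value, 7.55, in control 2.

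Other probes of a gene give a check on single genes, though from the same RNA and array. For 61 genes over 4-fold that had another probe above background, the 2 probes had the same highest mouse in 53, or 86.9%. For 588 genes over 2-fold it was 68.9%, and for all 4026 genes with another probe 53.5%. The lowest mouse was the same in 43 of the 61, or 70.5%, in 63.3% of the 588 and in 47.9% of the 4026.

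Controls 1 and 4 were scanned in a later run and on another slide than controls 2, 3 and 5, so scan and slide cannot be told apart. The first principal component, with 38.7% of the variance, put controls 1 and 4 on one side (40.1 and 22.8) and controls 2, 3 and 5 on the other (-26.5, -17.6 and -18.8). No gene passed an adjusted p of 0.05 between the scans (0 of 16768, percent called 0, limma with Benjamini-Hochberg adjustment, smallest adjusted p = 0.143), while 3048 genes, 18.2%, had an unadjusted p under 0.05, against 838 expected at that threshold. With 2 arrays against 3, differences that follow this split cannot be told apart from a difference between scans. The second component, with 31.8%, set controls 2 and 4 (-30.1 and -26.5) against controls 1, 3 and 5 (14.2, 30.2 and 12.3), and so ran across the scans.

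The 448 genes over 4-fold were spread over many patterns, of which that with controls 2 and 4 high was the most frequent. Calling a mouse high for a gene when it lay above the middle of the gene's range, controls 2 and 4 alone were high for 114 genes, 25.4% of the 448, against 4.52% of all genes. Control 4 alone was low for 40 genes, or 8.93% against 5.76% of all genes, and control 1 alone was high for 37, or 8.26% against 5.90%, both nearer to the share among all genes. Controls 1 and 4 were high for 36, or 8.04% against 12.3%. Without control 2, 269 genes were over 4-fold, against 299 without control 1 and 330, 362 and 414 without controls 3, 4 and 5. Leaving out any array can only lower this number.

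**Figure D2:**
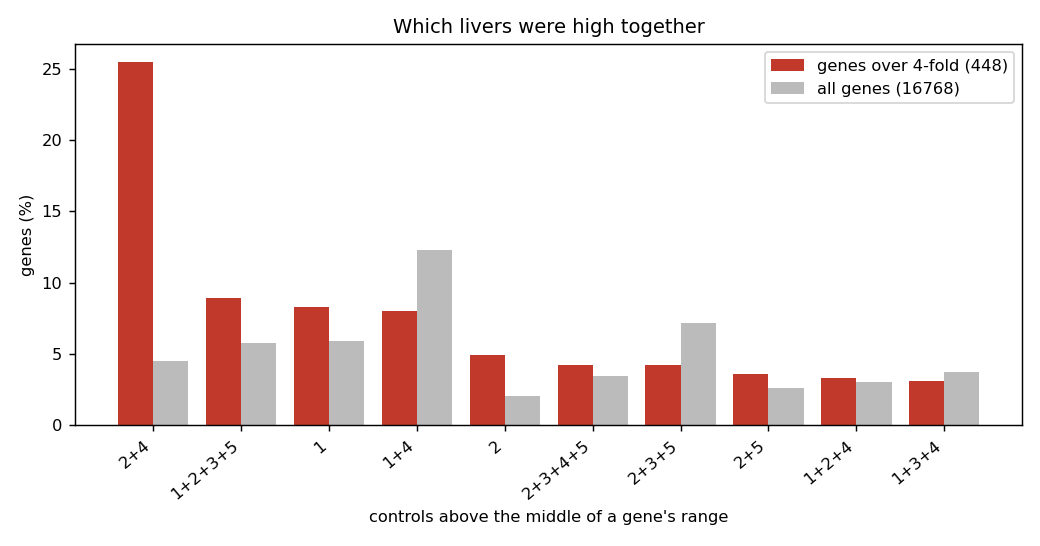
Bars give the percentage of genes in which the controls named on the x axis were above the middle of the gene's range, in red for the 448 genes over 4-fold and in grey for all 16768 genes. The pattern with controls 2 and 4 holds 25.4% of the variable genes and 4.52% of all genes.

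The genes high in controls 2 and 4 were led by targets of interferon-gamma. Tgtp1, a GTPase of cell-autonomous defence, had -0.25, 5.12, 1.16, 4.25 and 0.72 in controls 1 to 5, a 41.3-fold range. Its near-identical copies in the genome may share the probe. Controls 2 and 4 lay more than 3 units above the other 3 mice. Cxcl9, a chemokine that attracts T cells, had 0.41, 4.47, 0.27, 4.40 and 1.18. Gbp2, a guanylate-binding protein, had -0.39, 2.93, -0.28, 2.65 and 0.28. The pattern was defined by controls 2 and 4 alone lying above the middle of the range, so their values could not overlap those of the others. Acod1, which makes itaconate in macrophages, spanned 28.1-fold, Chil3, a chitinase-like protein of macrophages, 46.4-fold, and Ubd, a ubiquitin-like modifier, 28.9-fold, each with control 2 highest and control 4 next. Of the genes over 4-fold, those whose centred levels were nearest to Tgtp1 over the 5 livers included Chil3, Acod1, Cxcl9, Gbp2, Gbp2b, Igtp and H2-Aa, with mean differences of 0.48 to 0.77.

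Of 22 measured genes of an interferon list, 19 were highest in control 2, against 16.6% of all genes, and controls 2 and 4 were the highest mice in 13, against 8.72%. Of the 22, 18 spanned over 2-fold, against 21.5% of all genes, with a median SD of 0.69. Promoters of these genes often hold the interferon-stimulated response element, where interferon-activated factors bind. The letters GAAA, any 2 bases and GAAA again, or TTTC, any 2 bases and TTTC for the other strand, were searched in RefSeq promoters (GRCm38.p6, 250 bases before to 50 after the start). They occurred in 16 of 76 promoters found for the genes high in controls 2 and 4, 21.1%, against 3.74% of 9464 promoters of measured genes and 3.99% of all 27025. In the interferon list they occurred in 10 of 16 promoters, and for the genes high in control 2 alone in 0 of 11. Letters of other elements were searched as well. The heat shock element occurred in 4 of 12 promoters of the heat shock list, against 0.549% of measured genes. In the clock list, the E-box occurred in 3 of 14 promoters, against 11.5% of measured genes, and the D-box in 0 of 14. Direct repeat 1 occurred in 0 of 22 promoters of the PPAR alpha list. A match describes letters and is not a shown binding site. The sequences below come from genes highest in controls 2 and 4 whose promoters hold a match, while most promoters of that pattern hold none. Each runs 5′ to 3′ along the gene's strand upstream of its start, and capitals mark the match.
Tgtp1, chr11:48992279-48992358, minus strand: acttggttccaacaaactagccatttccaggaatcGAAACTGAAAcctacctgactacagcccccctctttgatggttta
Igtp, chr11:58199487-58199555, plus strand: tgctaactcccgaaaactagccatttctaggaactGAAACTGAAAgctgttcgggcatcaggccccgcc
Gbp2, chr3:142620569-142620648, plus strand: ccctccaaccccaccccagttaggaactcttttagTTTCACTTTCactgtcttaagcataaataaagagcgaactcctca
Gbp2b, chr3:142594675-142594754, plus strand: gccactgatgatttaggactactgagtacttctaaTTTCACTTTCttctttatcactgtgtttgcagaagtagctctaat
Cxcl10, chr5:92349058-92349137, minus strand: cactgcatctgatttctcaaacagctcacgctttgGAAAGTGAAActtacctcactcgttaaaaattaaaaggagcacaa

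Among the other genes printed there, the order of the other 3 mice differed between genes. Igtp, a defence GTPase, had 2.78, 6.14, 3.73, 5.75 and 3.28. Cxcl10, a chemokine related to Cxcl9, had -1.21, 2.31, -0.19, 1.74 and 0.13. Gbp2b spanned 9.02-fold, with control 2 highest. That controls 2 and 4 were the highest mice in all of them follows from how these genes were chosen.

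Genes of antigen presentation by MHC class II were also highest in controls 2 and 4. All 7 measured genes of the list were highest in control 2, and in all 7 the highest mice were controls 2 and 4, against 8.72% of all genes. H2-Ab1, a chain of the MHC class II molecule, had 2.48, 5.43, 2.21, 5.09 and 2.67. Its 2 other probes spanned 11.1-fold and 14.3-fold, with control 2 highest on both. Cd74, the invariant chain, had 2.29, 5.16, 2.14, 4.47 and 2.56, and Ciita, the regulator of these genes, spanned 10.7-fold. The mean of the list, each gene taken from its mean over the 5 livers, was -0.92, 1.71, -1.09, 1.02 and -0.72 in controls 1 to 5.

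Markers of immune cells followed in part. Of 21 macrophage markers, 17 were highest in control 2, against 16.6% of all genes, and controls 2 and 4 were the highest mice in 15, against 8.72%. Marco, a scavenger receptor of macrophages, had 4.77, 7.67, 4.75, 6.33 and 5.23. Cd5l, made by resident Kupffer cells, spanned 2.17-fold. Of 14 lymphocyte markers, controls 2 and 4 were highest in 9. Ccl5 had 1.07, 4.03, 0.90, 2.97 and 1.07, and Gzma, a granzyme of cytotoxic cells, spanned 8.66-fold. All 5 neutrophil markers measured, of 13 listed, were highest in control 2, among them S100a8 and S100a9. In whole liver, more cells of a type and more RNA per cell cannot be told apart. The part of immune cell number in the interferon pattern was not tested.

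The acute phase proteins did not follow the same order. Saa1, a serum amyloid secreted by hepatocytes, had 8.25, 9.83, 9.52, 8.60 and 6.99, so that control 5 was lowest and control 3 was near the top. Saa2, nearly identical in sequence, gave almost the same values and may share signal. Saa3 had 5.28, 7.31, 6.70, 6.05 and 4.28. Lcn2, an iron-trapping protein of inflammation, had 0.24, 2.54, 1.24, 0.60 and -0.82. Of 28 acute phase genes, 12 were highest in control 2, against 16.6% of all genes, and 10 lowest in control 5, against 12.9%.

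Proliferation genes were highest in control 2 in 14 of 18, against 16.6% of all genes, and 14 of the 18 spanned over 2-fold, against 21.5%. Mki67, a marker of cycling cells, had -1.86, -0.12, -2.56, -1.94 and -1.30. Control 4 was not high for Mki67. Cdc20 and Plk1, regulators of mitosis, spanned 4.87-fold and 4.28-fold, with control 2 highest and control 3 lowest.

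**Figure D3:**
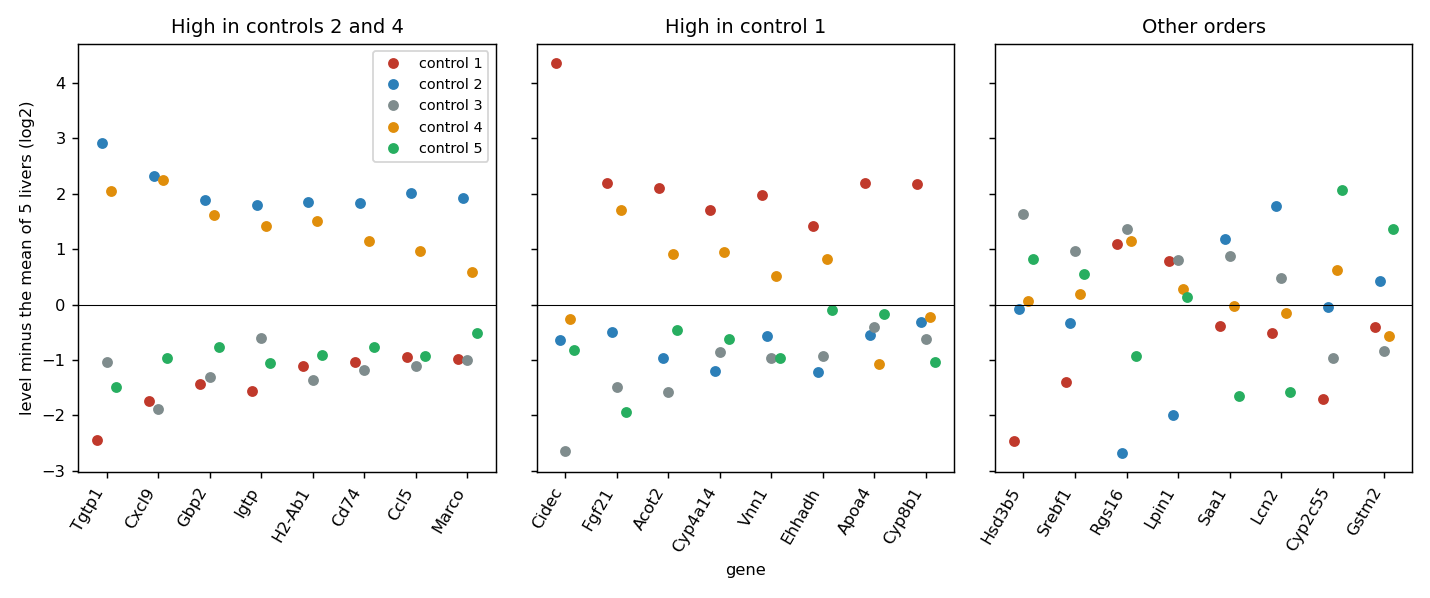
Points give the level of each gene on the x axis in each of the 5 control livers, minus the gene's mean over them (log2), coloured by liver. The genes of the left and middle panels were chosen for their order. Controls 2 and 4 lie above the other livers for all 8 genes of the left panel. Control 1 is highest for all 8 of the middle panel, and the right panel holds genes with other orders.

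Control 1 stood out for fat handling. Of 30 targets of PPAR alpha, the receptor that switches on fatty acid oxidation in fasting, 27 were highest in control 1, against 27.7% of all genes, and in 25 the highest mice were controls 1 and 4, against 22.2%. The range was over 2-fold in 26 of the 30, against 21.5% of all genes. Cyp4a14, a fatty acid hydroxylase, had 9.88, 6.98, 7.33, 9.13 and 7.55. Fgf21, a hormone that the fasted liver secretes, had 1.96, -0.75, -1.73, 1.47 and -2.18, and its other probe spanned 15.5-fold with control 1 highest. Controls 1 and 4 were separated from the other 3 mice for both genes. Acot2, a thioesterase, had 0.26, -2.81, -3.42, -0.92 and -2.29. Vnn1, Slc22a5, a carnitine transporter, and Ehhadh, a peroxisomal enzyme of fatty acid oxidation, spanned 7.69-fold, 6.74-fold and 6.23-fold. The list mean was 0.99, -0.56, -0.49, 0.41 and -0.35. Since controls 1 and 4 share a scan, control 1 exceeded the other mice by 1.23 in this mean, and by 0.36 after each scan was centred.

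Genes of lipid droplets were also highest in control 1, in 16 of 17 cases, against 27.7% of all genes. Cidec, which fuses droplets, had the largest range of any named gene here, at 5.67, 0.68, -1.33, 1.05 and 0.49, or 127.7-fold. Control 1 alone was high for Cidec. Plin2, the main droplet coat protein of hepatocytes, had 8.45, 7.49, 6.50, 7.60 and 6.94, and Plin4 and Plin5 spanned 4.15-fold and 4.16-fold. The list mean in control 1 was 1.19 above the others, and 0.55 after each scan was centred. Cidec is also a fat cell gene, and the mean of the 5 fat cell markers measured, Cidec included, was 1.01 higher in control 1 than in the others. Cidec by itself was 5.44 higher in control 1. Of the 11 markers listed, 6 were well above background on no array, namely Adipoq, Cfd, Lep, Retn, Plin1 and Adig. The other 4 measured markers, Fabp4, Cd36, Lpl and Car3, had control 1 highest in 1 of 4, namely Cd36. The part of fat tissue in the droplet pattern was not tested.

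Further genes were highest in control 1, several of them in that liver alone. Apoa4, a lipoprotein that the liver makes when fat is plentiful, had 5.11, 2.36, 2.52, 1.84 and 2.74. Cyp8b1, which sets the ratio of bile acids, had -1.06, -3.56, -3.85, -3.46 and -4.27. Dbp, a transcription factor driven by the clock, had 2.43, 0.46, -0.20, 0.25 and -0.27. Gadd45g, a stress-induced gene, spanned 8.29-fold, and Socs2, a feedback inhibitor of growth hormone signalling, 6.74-fold. Myc was high in control 1, at 1.22, and in control 4, at 0.58, against -1.79 to -0.20 in the others. Of 14 heat shock genes, 12 were highest in control 1, against 27.7% of all genes, led by Hspa1b at -0.08, -2.15, -2.48, -0.91 and -1.16. In 8 of the 14, controls 1 and 4 were the highest mice, against 22.2% of all genes. Hspa1a and Hspa1b are near-identical and their probes may share signal. The heat shock mean in control 1 was 0.53 above the others, and 0.24 after each scan was centred.

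Control 1 was lowest for other genes. Bhlha15, a transcription factor of secretory cells, had -4.06, 0.44, -0.95, -1.21 and 0.68, although its other probe spanned only 1.71-fold. Cyp2c70, which makes the muricholic acids of mice, had 6.51 in control 1 and 7.92 to 8.07 in the others.

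Controls 3 and 5 shared high levels of male-biased genes. These genes depend on the pulses in which male mice secrete growth hormone. Of 14 measured, 9 had controls 3 and 5 as the highest mice, against 16.2% of all genes. Hsd3b5, a steroid enzyme of male liver, had 0.53, 2.91, 4.64, 3.07 and 3.82, a 17.2-fold range with control 1 lowest. Hsd3b4 gave much the same values and is a close paralogue. Susd4, Elovl3 and Selenbp2 spanned 6.37-fold, 4.92-fold and 2.88-fold. Controls 3 and 5 were the highest mice for all 5 measured major urinary protein genes, which are also near-identical to each other. Mup6 had 4.28, 3.77, 5.27, 4.19 and 5.11. Bcl6, a repressor active in male liver, had 3.31, 3.13, 5.35, 4.35 and 4.70. Of 12 measured female-biased genes, 0 were highest in control 3, against 20.7% of all genes, and 5 in control 5, against 14.1%. The mean of that list was -0.32 in control 3 and -0.01 in control 5, so only control 3 was low for it. Controls 3 and 5 were also the most alike pair of arrays.

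Some regulators of lipid synthesis had a like order. Srebf1, the activator of fatty acid synthesis, had 4.26, 5.32, 6.63, 5.85 and 6.20. Mlxipl, the carbohydrate-responsive activator, and its target Thrsp were highest in controls 3 and 5 and spanned 2.96-fold and 2.88-fold. Fasn, fatty acid synthase, had 4.80, 4.99, 5.81, 5.05 and 6.00. Among 23 measured genes of fatty acid and triglyceride synthesis, however, 12 were lowest in control 2, against 26.8% of all genes, and the highest mouse varied. Lpin1, a phosphatidate phosphatase induced in fasting, had 4.05, 1.28, 4.07, 3.55 and 3.40, with control 2 lowest on both of its other probes. Rgs16, a regulator of G protein signalling, had 4.64, 0.86, 4.90, 4.69 and 2.60.

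Control 2 was lowest for several hepatocyte programs. In the urea cycle and amino acid list, 16 of 20 genes were lowest in control 2, against 26.8% of all genes, and 10 were highest in control 1, against 27.7%. Arg1 (arginase) had 7.28, 6.01, 6.81, 6.46 and 6.64. Got1 and Tat (aminotransferases) and Oat spanned 3.15-fold, 2.81-fold and 4.08-fold, each with control 1 highest and control 2 lowest. For Got1 and Oat, control 1 lay further from the mean of the others than control 2 did. Igfbp1, induced by fasting and glucocorticoids, had 8.30, 6.39, 8.27, 8.15 and 7.33, and G6pc, the last enzyme of glucose output, had 6.89, 5.84, 7.77, 7.01 and 6.64. Of 18 glucose genes, 8 were lowest in control 2, against 26.8% of all genes, and 10 highest in control 3, against 20.7% of all genes highest there. Per1, a clock gene, had 1.56, -0.01, 1.35, 1.76 and 1.42. Of 17 clock genes, 12 spanned over 2-fold, against 21.5% of all genes, and 10 were lowest in control 2, against 26.8%, while Arntl, at the core of the clock, spanned 1.47-fold. Hepatocyte markers as a list differed by -0.31 in control 2 from the others, and by -0.12 both with quantile normalization and in the deposited table matched by values. The urea cycle and amino acid list, with 19 of 20 genes in the brightest 10%, differed by -0.52, and by -0.32 under both of those alternatives. The hour at which livers were taken is not given per mouse in the labels, and its part was not tested.

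Drug metabolism was highest in control 5. Of 35 cytochrome P450 and conjugation genes, 20 were highest there, against 14.1% of all genes, and 17 were lowest in control 1, against 19.7%. Cyp2c55 had -0.97, 0.69, -0.24, 1.34 and 2.80. Gstm2, a glutathione transferase, had 4.02, 4.86, 3.59, 3.86 and 5.80. Cyp2b10, the classical target of the receptor CAR, had 1.83, -0.31, 0.87, 1.57 and 2.09, so that control 1 was near the top for it. Por, which passes electrons to P450 enzymes, had 7.06, 5.63, 6.83, 7.08 and 7.62, and Akr1b7 spanned 6.63-fold with control 5 highest.

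**Figure D4:**
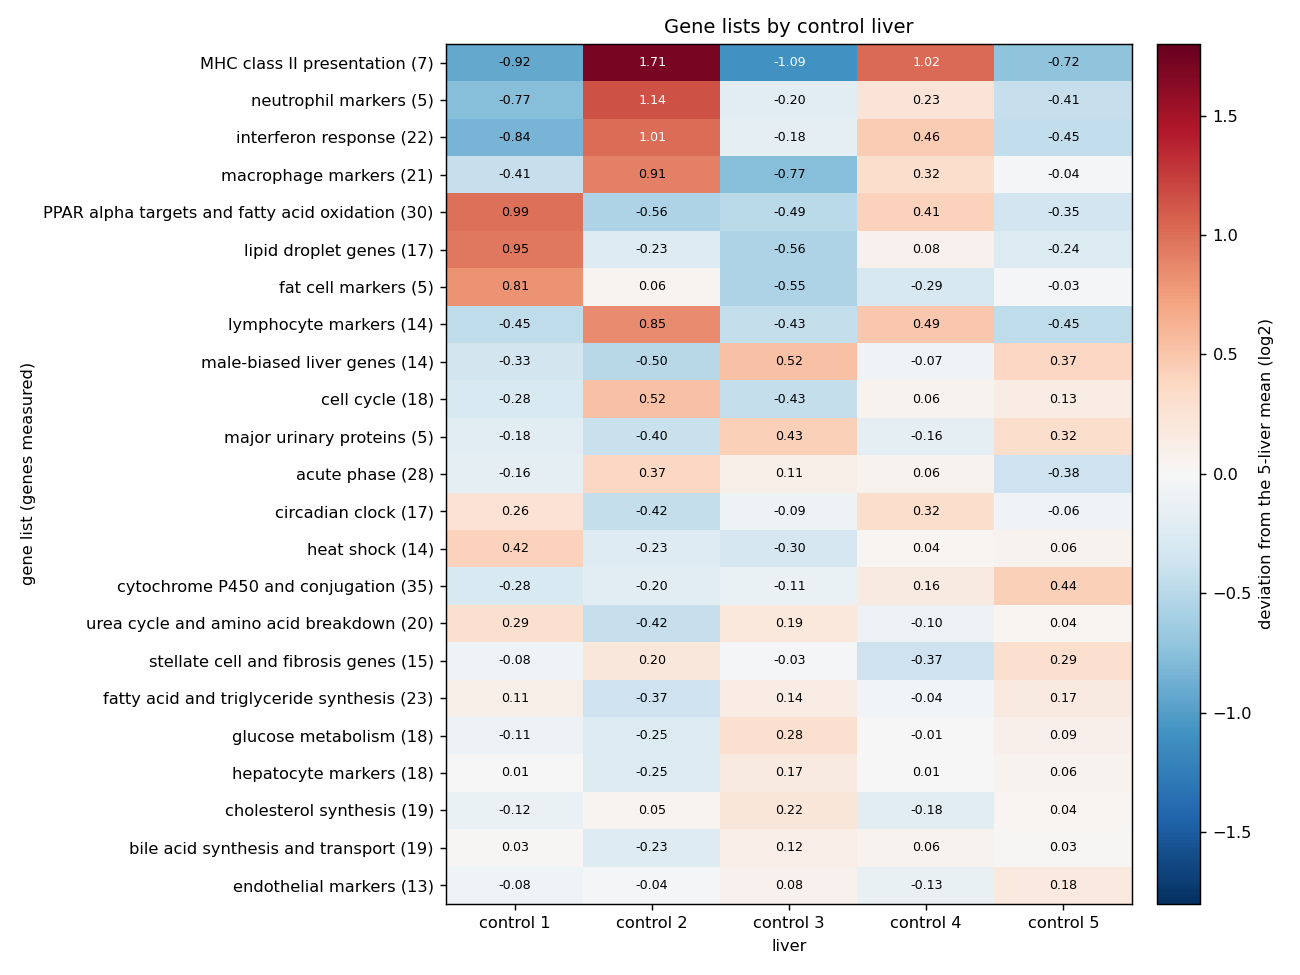
Rows are 23 gene lists with the number of genes measured, columns are the 5 control livers, and each cell gives the mean over the list of each gene's level minus its mean over the livers (log2; red is higher, blue lower). MHC class II has 1.71 in control 2 and 1.02 in control 4, PPAR alpha targets have 0.99 in control 1, and the cholesterol synthesis and endothelial lists lie between -0.18 and 0.22.

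Genes of sterol balance had a smaller spread than the interferon, MHC class II and PPAR alpha lists. In the cholesterol synthesis list 8 of 19 genes spanned over 2-fold and 0 over 4-fold, against 21.5% and 2.67% of all genes. Their median SD was 0.36, above the 0.25 of all genes, and the list mean ranged over 0.41. Hsd17b7 spanned 3.42-fold and Acat2 2.47-fold. Stard4, a cholesterol carrier, varied more, at -0.27, 1.15, 1.41, -1.30 and 0.73, but its 2 other probes spanned only 2.27-fold and 3.49-fold and had control 1 lowest. Abcg5 and Abcg8, the 2 parts of the sterol exporter into bile, were both highest in control 3, with ranges of 2.39-fold and 3.96-fold. Cyp7a1, which takes the first step from cholesterol to bile acids, was well above background on 3 of 5 arrays and is outside the genes measured. Of 19 bile acid genes, 5 spanned over 2-fold, against 21.5% of all genes. Abcb11, the bile salt export pump, had 7.08, 7.73, 8.36, 7.62 and 8.52.

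The 40 genes low in control 4 alone had another character. The 17 with a RefSeq symbol included Zfp445, with -0.12, 0.04, 0.79, -1.75 and 0.93, and Esf1, Pcm1, Ankrd26 and Ptprb. The genes with a length in RefSeq had a median span of 54.0 kb, against 14.7 kb for all genes over 4-fold and 21.6 kb for all genes measured. Pcm1 had other probes with ranges of only 1.31-fold and 1.27-fold, whereas the other probes of Zfp445 spanned 6.69-fold and 4.57-fold, with control 4 lowest. Ankrd26 had other probes with ranges of 3.95-fold and 1.82-fold, and Esf1 of 4.81-fold and 1.95-fold, each with control 4 lowest. On the Ankrd26 probe with the smaller range, control 5, at -4.64, was close to control 4, at -4.68. Control 4 also had the lowest 75th percentile of signal and the lowest share of probes well above background, and the part of RNA quality was not tested.

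Markers of other liver cells were steadier than those of immune cells. None of 13 endothelial markers spanned over 2-fold, against 21.5% of all genes. Of 15 stellate cell and fibrosis genes, 5 did, led by Acta2, smooth muscle actin, at 1.20, 2.43, 2.37, 1.70 and 2.72, and 8 of the 15 were lowest in control 4, against 22.6% of all genes. Ash1l, a histone methyltransferase, was high in control 3 alone on its brightest probe, at 0.48 against -3.47 to -2.37 in the others. Its other probe had -2.32, -1.83, -1.51, -2.98 and -1.74. There control 3 was highest but close to controls 5 and 2, so that probe did not set control 3 apart.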

How the data were processed

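RNA from 5 control livers was hybridised to 1-colour Agilent arrays. Per the submitters' processing notes and the file headers, the deposited scanner files came from Agilent Feature Extraction 10.1.1.1 and hold a background-subtracted intensity per spot (gProcessedSignal). The authors also deposited a table of linear intensity per gene symbol. How that table was normalised is not stated in the labels or files read here. Its median log2 value was 5.10 to 5.18 per control column, and its column numbers disagree with the scanner files as described in the report. Scanner files gave all main values, and 0 columns were left unused as belonging to another series.

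Intensity, taken from the deposited files, was averaged over spots of a probe, then converted to log2 and scaled to each array's 75th percentile. Control spots and outlier spots were left out. A gene was represented by its brightest probe well above background on all 5 arrays. Of 41142 probes, 25080 matched a RefSeq gene. Scans were compared with limma 3.58.1 in R 4.3.3, tested on simulated data; other values are descriptions made with Python 3.11.15 and pandas 2.3.3. Genes were named by rank (the 25 brightest, the 40 with the largest SD, the 20 with the largest SD for their level, the 15 with the smallest SD, the 15 with the largest gap), as up to 8 members per list by SD, by loadings, by likeness to the leader of a pattern, by p between scans, or from a fixed list of genes. The members and lists were chosen with earlier results of these data known. The fat cell markers Adipoq, Cfd, Lep, Retn, Plin1 and Adig fall outside this rule and were named after their values were seen. Alternatives were other scalings, normexp background correction (offset 50, on the median signal, since the files hold no mean signal), other filters and probe rules, the deposited table, each array left out, and the scan as a block. Results for some genes are not reported here.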

Additional observations from a re-analysis of the deposited data

Results flagged for a closer look

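In 14 of 175 sets of 5 values, 1 liver lay further from the nearest other than 0.710 of the whole range, Dixon's limit for 5 values. Chance flags about 1 in 20 sets, but many of these genes were named for a large gap or SD, so the number found cannot be set against that rate. Control 1 was apart on the high side for Kiss1 (0.816 of the range), Elovl5 (0.786), Cyp8b1 (0.748), Dbp (0.730) and Apoa4 (0.724). It was apart on the low side for Cyp2c70 (0.909) and Gclc (0.715). Control 2 was apart on the low side for Bmp2 (0.831), Per1 (0.768), Lpin1 (0.762) and the mean of the bile acid list (0.733), and on the high side for Orm2 (0.793). Control 4 was low for Esf1 (0.778), and control 3 was high for the brightest probe of Ash1l (0.723). Elovl5, a fatty acid elongase, had 6.20 in control 1 against 4.51 to 4.87 in the others, and its other probe also had control 1 highest, with a 6.38-fold range.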

How the results depend on the processing

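The number of genes over 2-fold was 3602 and stayed within 3502 to 4132 under other scalings, the looser filter and the mean of probes, but was 1192 with normexp, 11096 with no filter on dim probes, 1861 in the deposited table and 2007 with the scan as a block. Without single arrays it was 2618 to 3260. The number over 4-fold was 448, and 137, 2389, 250 and 241 under those 4 settings, and 269 to 414 without single arrays. No gene was called between scans under any alternative run. Of the 23 list values (the extreme mouse minus the mean of the others), none changed sign in 299 alternative values from the scanner files or from the deposited table with columns matched by values, an alternative chosen after seeing the data. Those that moved by more than 1 SD were hepatocyte markers (-0.12 with quantile normalization and -0.12 in the matched table), bile acid genes (-0.15 with quantile normalization) and, with the scan as a block, stellate cell genes (-0.18), PPAR alpha targets (0.36), lipid droplet genes (0.55) and heat shock genes (0.24). With the scan as a block, 2 arrays share a scan, so part of a mouse's own difference is removed with it. Of 111 genes with a value over 1, 0 of 1440 alternative values had the other sign. With no filter on dim probes and with the looser filter, the list values were taken over the same genes and equalled the main values. Those settings could therefore not change the sign of a list value. For lists and genes, the mouse compared was the most extreme in the main values, and its own array was never the one left out. Read by its own column numbers, the deposited table gave the opposite sign for 17 of 23 list values and 116 of 149 gene values, for example -1.18 in place of 2.14 for MHC class II in control 2 and -0.39 in place of 1.23 for PPAR alpha targets in control 1. These label-based values are not counted above, because the columns hold other arrays than their numbers name. No paired analysis was possible because only 1 group was described. With 5 arrays, an SD is itself imprecise, and dim probes near background vary most.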
